A study of Mus musculus with 8 samples.

Results

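Among 81391 quality-controlled nuclei of mouse kidney, 72 nuclei (0.0885%, exact binomial 95% interval 0.0692 to 0.111) carried the RNA of fat cells and were set apart as brown-fat-like adipocyte nuclei. A nucleus was taken when it held at least 3 of 10 fat genes, each with 1 or more unique molecular identifiers (UMIs, the tags that mark single captured RNA molecules). Of these 10 rule genes, Plin1, Cidec, Adipoq and Retn are expressed in both white and brown fat, while Ucp1, Elovl3, Otop1, Dio2, Cyp2b10 and Adrb3 are linked to heat-producing fat or to its activation. Every nucleus had to show 500 or more genes and 800 or more UMIs, with no more than 2% of its UMIs from mitochondrial genes. The members were thus chosen by measured UMIs of the rule genes. The levels of these genes, and every difference between these members and the other nuclei, follow from how the members were chosen and are given as descriptions without a test. All intervals cover counting error only.

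The nuclei came from the kidneys of male mice on the C57BL/6J background, with 2 libraries in each of 4 groups. Control mice (Ctrl) carried Bmal1lox/lox, a floxed Bmal1 gene, and cKOt mice carried Bmal1lox/lox/Pax8-rtTA/LC-1, in which the Pax8 promoter drives a doxycycline-dependent activator of Cre in the renal tubule. Both genotypes received doxycycline (2 mg/ml in water with 20 mg/ml sucrose) for 2 weeks from the age of 8 weeks, and kidneys were taken at 14 weeks, at Zeitgeber time ZT4 in the light phase or ZT16 in the dark phase. The organs were perfused and freed of their capsule, and nuclei were isolated from frozen central sections of about 25 mg that held cortex and medulla, so kidney is the one tissue the samples name. Between 8758 and 10975 nuclei passed in each library, with a median of 3003.5 to 4830 UMIs per nucleus.

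White adipocytes store triglyceride in 1 large lipid droplet and release fatty acids when insulin falls and adrenergic tone rises. Brown and beige adipocytes hold many small droplets and burn the fatty acids on the spot: uncoupling protein 1 (UCP1) lets protons re-enter the mitochondrial matrix without making ATP, and the energy leaves as heat. Noradrenaline drives both processes through beta-adrenergic receptors, cyclic AMP and lipases. The nuclear receptor PPARG directs fat cell formation, and EBF2, PRDM16 and PPARGC1A direct the thermogenic programme.

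Adipocyte nuclei were concentrated in the cKOt ZT4 libraries. Replicate 1 of that group held 22 members (0.212% of its nuclei, interval 0.133 to 0.321) and replicate 2 held 41 (0.409%, interval 0.294 to 0.554). The Ctrl ZT4 libraries held 1 and 2 members. The Ctrl ZT16 libraries held 4 and 0, and the cKOt ZT16 libraries 2 and 0. Thus 63 of the 72 members (87.5%) lay in 1 group and 9 in the other 6 libraries, and both cKOt ZT4 libraries were above each of the other libraries. The absence of members among 10739 nuclei of Ctrl ZT16 replicate 2 allows a share of up to 0.0279% (3 counts of the total; exact binomial 95% upper limit 0.0343%), and that among 10975 nuclei of cKOt ZT16 replicate 2 a share of up to 0.0273% (exact upper limit 0.0336%). Since each library came from a kidney section of its own and fat was not sampled on purpose, the group and the piece of tissue cannot be told apart, and no test between groups was made.

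**Figure D1:**
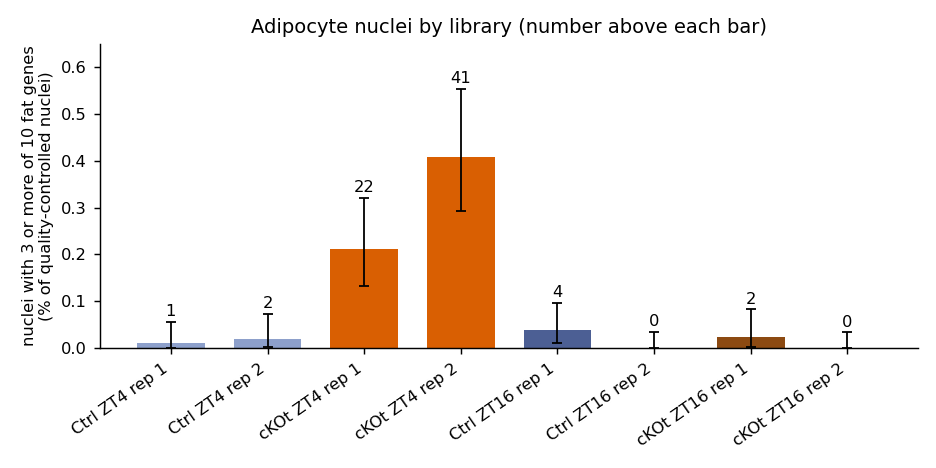
Share of quality-controlled nuclei that held at least 3 of the 10 rule genes (y axis, percent), by library (x axis). Bars give the share, whiskers the exact binomial 95% interval and numbers the count of members. The 2 cKOt ZT4 libraries hold 22 and 41 members, and no other library holds more than 4.

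The rule met a gap rather than a slope. In the cKOt ZT4 libraries 486 nuclei held 1 rule gene, 5 held 2, and 13, 11, 26, 8 and 5 nuclei held 3, 4, 5, 6 and 7. In the other 6 libraries 267 nuclei held 1 rule gene, 2 held 2, none held 3, and 4 and 5 nuclei held 4 and 5. The 13 members just inside the threshold carried a median of 6 (range 4 to 8) of 10 adipocyte identity genes that the rule did not use. The 7 nuclei just outside it carried a median of 1 (range 0 to 8), and the 59 members with 4 or more rule genes a median of 7 (range 4 to 10). No barcode that failed the quality limits held 3 rule genes.

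**Figure D2:**
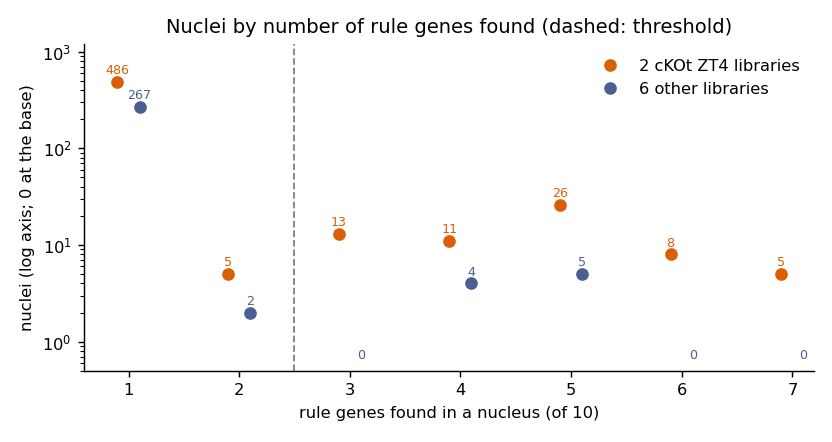
Number of nuclei (y axis, log scale, printed beside each point) by the number of rule genes found in the nucleus (x axis), for the 2 cKOt ZT4 libraries and the 6 other libraries. Counts drop from 486 and 267 nuclei with 1 gene to 5 and 2 nuclei with 2 genes, and the cKOt ZT4 counts reach 26 nuclei at 5 genes. The dashed line marks the threshold.

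Fat gene UMIs were also found in other nuclei, more often in the libraries with many members. A rule gene UMI was present in 1.13% and 3.75% of the non-member nuclei of cKOt ZT4 replicates 1 and 2, and in 0.292% to 0.639% of those of the other 6 libraries. Proximal tubule nuclei, which should lack these genes, gave a like 1.16% (interval 0.837 to 1.57) and 3.73% (interval 3.13 to 4.41) in the cKOt ZT4 libraries, against 0.389% to 0.783% elsewhere. Ucp1 made up 29.4% of the rule gene UMIs in non-members of replicate 2 and 29.5% in its members, and 13.7% and 15.4% in replicate 1. Dio2, the deiodinase that activates thyroid hormone, did not keep such a ratio: it gave 156 of the 483 rule gene UMIs in non-members of replicate 2 and 8 of the 912 in its members. In non-members of replicate 1 it gave 50 of 146. Dio2 is part of the totals behind the Ucp1 shares, so the closeness of those shares depends on counting it. The source of these single UMIs was not tested.

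The fat cell identity of the members held in genes outside the rule. All 10 identity genes were at least 4-fold higher in members than in the other nuclei, in counts per 1000000 summed UMIs (CPM), whereas 5.46% of 22730 genes with at least 20 UMIs were (5.04% were at least 4-fold lower). The median ratio of the 10 genes was 58.4. Over all genes tested it was 1.61, where 8474 genes had no UMI in one set and enter at their bound, and over the 6830 genes with at least 10 UMIs in members, of which 7.2% were at least 4-fold higher, it was 1.14. Plin1, which coats the lipid droplet, and Pparg and Lipe outside the rule were found in 72 of 72 members.

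Pparg had 375 and 754 UMIs in the members of cKOt ZT4 replicates 1 and 2, 4 and 32 in those of Ctrl ZT4, 60 in Ctrl ZT16 replicate 1 and 22 in cKOt ZT16 replicate 1. This was 2755 and 2881 CPM in the cKOt ZT4 libraries, 1756 CPM (exact Poisson interval 1454 to 2103) in the 9 members elsewhere and 25.1 CPM in the other nuclei. Endothelial nuclei, which also use Pparg, were at 99.3 CPM. Pooled, the 9 members outside cKOt ZT4 were below the other 63, but they come from 4 libraries of 1 to 4 members. By library they stood at 1146 and 2963 CPM in Ctrl ZT4, 1855 CPM in Ctrl ZT16 replicate 1 and 1070 CPM in cKOt ZT16 replicate 1, so the 2 members of Ctrl ZT4 replicate 2 were above both cKOt ZT4 libraries. Scrublet scored both of these members as doublets, that is, 2 nuclei under 1 barcode.

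Lipe, the hormone-sensitive lipase that splits diglycerides during lipolysis, stood at 889 and 959 CPM in members of the cKOt ZT4 libraries and at 759 CPM in the members elsewhere, against 19.8 CPM in the other nuclei. Fabp4, a fatty acid carrier of adipocytes and capillary endothelium, stood at 955 and 2048 CPM in the cKOt ZT4 members, 670 CPM elsewhere and 343 CPM in endothelial nuclei. Lpl, which frees fatty acids from lipoproteins, stood at 1388 and 1391 CPM in the cKOt ZT4 members, 1518 CPM in those elsewhere and 139 CPM in the other nuclei. Pde3b, the phosphodiesterase through which insulin lowers cyclic AMP, was at 1881 and 1032 CPM in the cKOt ZT4 members and at 1250 CPM in those elsewhere, against 60.1 CPM. Of these genes Fabp4 and Pde3b differed most between the cKOt ZT4 libraries, and in opposite directions.

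The shares stayed apart at equal depth. Members had a median of 5439.5 UMIs (range 1847 to 16271) and the other nuclei 3681. With every nucleus thinned to 1000 UMIs, which left out no member and 1141 of the other nuclei, Pparg was still found in 87.5% of members against 2.7% of the other nuclei (100% and 5.8% unthinned), and Plin1 in 55.6% (100% unthinned). Fabp4 was found in 72.2% of members, 27.6% of endothelial nuclei and 1.3% of proximal tubule nuclei after thinning, and in 97.2%, 47.9% and 5.4% before it. Endothelial nuclei had a median of 2384 UMIs and proximal tubule nuclei of 6073.

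The members also formed a group of their own when the rule genes were withheld. Of 228 clusters built from 2000 variable genes without the 10 rule genes, 1 cluster of 76 nuclei held all 72 members. The other 4 nuclei in it held 1 or 2 rule genes and a median of 8 identity genes. With 30 in place of 50 principal components, 69 of the 72 members lay in 1 cluster of 73 nuclei.

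Among the rule genes, Ucp1 separated the libraries more than Plin1, which is shared with white fat. Plin1 had 126 and 244 UMIs in the members of cKOt ZT4 replicates 1 and 2, 7 and 9 in Ctrl ZT4, 15 in Ctrl ZT16 replicate 1 and 15 in cKOt ZT16 replicate 1. Ucp1 had 45 and 269 UMIs in the cKOt ZT4 libraries, 1 UMI in Ctrl ZT16 replicate 1 and none in the other members. In CPM, Plin1 ran from 685 in the pooled members outside cKOt ZT4 to 926 and 932 in the cKOt ZT4 libraries. Ucp1 ran from 14.9 (interval 0.377 to 82.9) to 331 and 1028, so that the 2 cKOt ZT4 libraries differed from each other as well. The other genes shared with white fat ran the opposite way. Cidec, Adipoq and Retn stood at 833, 208 and 208 CPM in the pooled members outside cKOt ZT4, above both cKOt ZT4 libraries. Adipoq was only slightly above replicate 2.

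A Ucp1 UMI was found in 15 of 22 and 32 of 41 members of the cKOt ZT4 libraries (74.6% of 63, interval 62.1 to 84.7) and in 1 of 9 members elsewhere. As a gene of the rule, Ucp1 is no check of the label. The 9 nuclei elsewhere had almost no Ucp1. Of 20 thermogenic genes outside the rule, Slc36a2 was found in 8 of these 9 nuclei, Ebf2 in 6 and Cidea in 5. Cox7a1, Cox8b, Letmd1, Fgf21 and Ckmt2 had no UMI in the 9 nuclei. Plin5 and Bmp8b had 1 UMI each, Clstn3 2, and Zfp516 and Cpt1b 3 each. The rest of the list had 6 (Kcnk3) to 118 UMIs (Esrrg). Most Ebf2 and Cidea UMIs of these 9 nuclei came from 1 library, and the levels are given among the thermogenic genes. Cidec, which helps droplets fuse, was found in 87.5% of all members, Adrb3, the beta3-adrenergic receptor, in 80.6%, and Adipoq, the hormone adiponectin, in 47.2%. Otop1, a proton channel, was found in 29.2%, Retn, the hormone resistin, in 25%, Dio2 in 18.1%, and Elovl3, an elongase of very long fatty acids, in 12.5%. Cyp2b10, a cytochrome P450, rested on 1 UMI. Dio2 and Elovl3 had 22 and 15 UMIs in the cKOt ZT4 members and none in the 9 members elsewhere, where 3 counts correspond to 44.6 CPM.

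The promoter windows of Ucp1, Plin1 and Dio2 are shown because Ucp1 divided the members, Plin1 was common to all, and Dio2 had motifs in its window. They run from 250 bases before to 50 bases after the transcription start and were taken from RefSeq on GRCm38.p6, the mm10 build. Capitals mark the matches to 5 motifs searched on both strands: TATAAA (the TATA box), TTGCNNCAA (a C/EBP-like pattern), TGACGTCA (the cyclic AMP response element), CACGTG (the E-box of CLOCK and BMAL1) and the direct repeat of PPARG with RXRA (2 copies of AGGNCA 1 base apart). The C/EBP-like pattern is 1 base longer than the C/EBP palindrome and cannot match it. The Ucp1 window is at chr8:83290098-83290397 (plus strand), the Plin1 window at chr7:79732727-79733026 (minus strand) and the Dio2 window at chr12:90738989-90739288 (minus strand).
Ucp1: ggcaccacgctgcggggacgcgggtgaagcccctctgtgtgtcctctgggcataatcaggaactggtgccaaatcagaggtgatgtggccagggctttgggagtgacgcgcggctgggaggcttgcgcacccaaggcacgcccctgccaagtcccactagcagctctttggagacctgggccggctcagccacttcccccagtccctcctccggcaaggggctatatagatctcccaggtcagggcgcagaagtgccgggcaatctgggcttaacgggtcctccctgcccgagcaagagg
Plin1: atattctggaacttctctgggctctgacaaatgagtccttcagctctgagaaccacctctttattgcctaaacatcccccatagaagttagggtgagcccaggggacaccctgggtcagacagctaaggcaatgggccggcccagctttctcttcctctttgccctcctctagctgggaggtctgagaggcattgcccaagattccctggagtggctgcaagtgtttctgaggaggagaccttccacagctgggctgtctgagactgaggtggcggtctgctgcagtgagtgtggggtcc
Dio2: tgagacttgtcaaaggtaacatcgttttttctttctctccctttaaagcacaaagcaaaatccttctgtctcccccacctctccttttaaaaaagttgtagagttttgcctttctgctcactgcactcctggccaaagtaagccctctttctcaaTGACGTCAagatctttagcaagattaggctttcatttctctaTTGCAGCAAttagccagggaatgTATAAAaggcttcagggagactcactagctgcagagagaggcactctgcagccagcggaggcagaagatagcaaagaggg
The Dio2 window held TGACGTCA from base 156, TTGCNNCAA from base 198 and TATAAA from base 221 of the window, with no overlap between them. The Ucp1 and Plin1 windows held none of the 5 motifs. Of the 40 rule, identity and thermogenic genes, 28 had windows in the table, 39 windows in all. TATAAA was in 7 of these 39 and in 13.6% of 32851 mouse windows, TGACGTCA in 2 and 1.79%, TTGCNNCAA in 1 and 2.08%, CACGTG in 3 and 7.15%, and the direct repeat in none and 0.381%. A match describes letters in a window and not a bound site.

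Most thermogenic genes outside the rule were higher in members than in the other nuclei. Of 19 thermogenic genes tested, 12 were at least 4-fold higher in members (63.2%, against 5.46% of all genes tested). The other 7 were neither higher nor lower, and the median ratio was 7.03. One of the 12, the mitochondrial creatine kinase Ckmt2, rested on 1 UMI. Fgf21 had no UMI in members and too few in all nuclei to be tested.

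Some of these genes were also found at high levels in tubule cells. Esrrg, an orphan receptor of oxidative tissues, had 2348 CPM in members and 3326 CPM in the other nuclei. Ppara, the receptor that drives fatty acid oxidation, had 2917 and 1647 CPM in members of cKOt ZT4 replicates 1 and 2, 253 CPM in members elsewhere and 258 CPM in the other nuclei. Gk, glycerol kinase, had 2461 and 906 CPM in the cKOt ZT4 members, 982 CPM in those elsewhere (431 CPM without Ctrl ZT16 replicate 1, which gave 51 of the 66 UMIs), 660 CPM in the other nuclei and 1096 CPM in proximal tubule nuclei. Ppara was therefore above the other nuclei in both cKOt ZT4 libraries and close to them in the pooled members elsewhere, whereas Esrrg had 3108 and 2105 CPM in the cKOt ZT4 members and 1756 CPM in those elsewhere.

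The genes that the kidney hardly used set members apart most. Slc36a2, an amino acid transporter on the surface of brown adipocytes, had 977 and 948 CPM in the cKOt ZT4 members, 446 CPM in those elsewhere and 0.291 CPM in the other nuclei. Ebf2, a selector of the brown fat fate, had 1609 and 1142 CPM, 461 CPM and 1.44 CPM in the same order. In cKOt ZT4 replicate 1, 1 nucleus gave 95 of the 219 Ebf2 UMIs. Cidea, a droplet protein typical of brown fat, had 852 and 886 CPM in the cKOt ZT4 members and 1.06 CPM in the other nuclei. In members elsewhere Cidea stood at 208 CPM (14 UMIs in 5 of 9 nuclei). Elsewhere, most Ebf2 and Cidea UMIs came from 1 library, while Slc36a2 was found in 8 of 9 nuclei. Ctrl ZT16 replicate 1 gave 26 of the 31 Ebf2 UMIs and 12 of the 14 Cidea UMIs, and without it Ebf2 stood at 144 CPM and Cidea at 57.4 CPM. Ctrl ZT4 replicate 2 gave 16 of the 30 Slc36a2 UMIs, at 1481 CPM in its 2 members, above both cKOt ZT4 libraries. Both of these members were scored as doublets. Without this library Slc36a2 stood at 248 CPM.

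Of the uncoupling proteins, Ucp1 and Ucp3 were at least 4-fold higher in members and Ucp2 was not. Ucp3, a relative of UCP1 in muscle and brown fat, had 66.1 and 218 CPM in the cKOt ZT4 members, 2 UMIs in members elsewhere and 0.480 CPM in the other nuclei. Ucp2, found in many tissues, had 4 UMIs in all members (8.60 CPM) and 8.05 CPM in the other nuclei. Of 8 white fat genes tested, 1 (12.5%, against 5.46% of all genes tested) was at least 4-fold higher in members. This was Slc7a10, an amino acid transporter of white adipocytes, at 7.35 and 126 CPM in the cKOt ZT4 members, 104 CPM (7 UMIs in 4 of 9 nuclei, and 53.2 CPM without Ctrl ZT4 replicate 2) in those elsewhere and 0.119 CPM in the other nuclei. Npr3, the natriuretic peptide clearance receptor, had 38.7 CPM in members and 36.6 CPM in the other nuclei, and the imprinted gene Nnat 28.0 and 10.6 CPM. Lep, the hormone leptin, singled out after its values were seen, had 9 UMIs in members, 5 of them in the members elsewhere (74.4 CPM, and 21.4 CPM without cKOt ZT16 replicate 1), and too few UMIs in all nuclei to be tested.

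**Figure D3:**
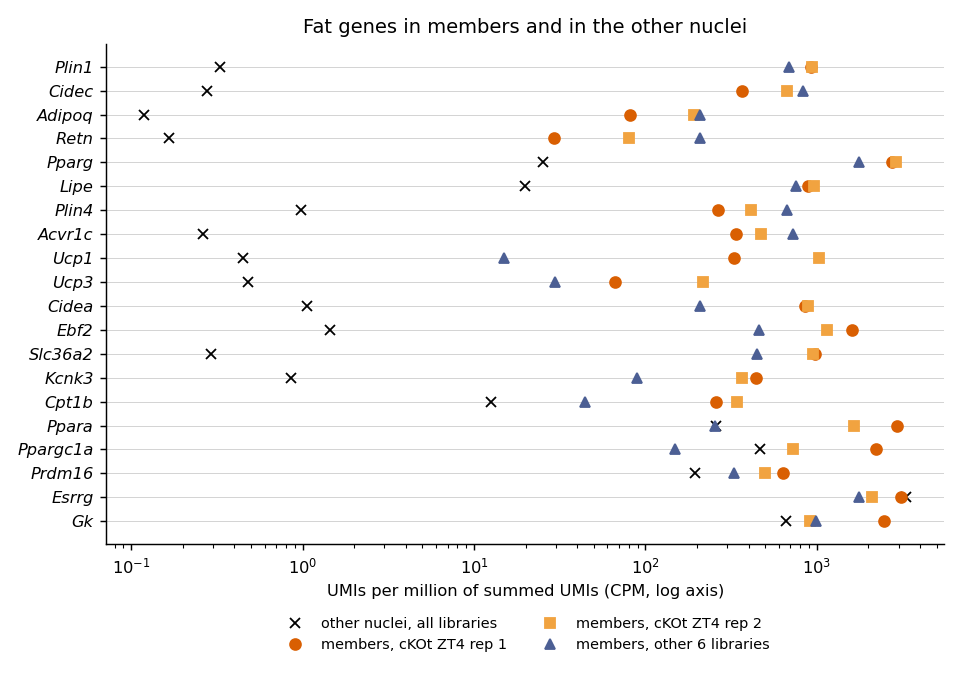
Levels (x axis, CPM of summed UMIs, log scale) of fat genes (y axis) in the other nuclei of all libraries (crosses), in members of cKOt ZT4 replicate 1 (circles) and 2 (squares), and in the 9 members of the other 6 libraries (triangles). Plin1 and Lipe are close in all 3 sets of members, Ucp1 is at 331 and 1028 CPM in the cKOt ZT4 libraries against 14.9 CPM elsewhere, and Esrrg is below its level in the other nuclei (3326 CPM) in these 3 sets.

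The cKOt ZT4 members with a Ucp1 UMI differed from those without one in some genes outside the rule. Pooled, the 47 nuclei with Ucp1 and the 16 without had like depths (medians of 5549 and 5252.5 UMIs) and a median of 13 and 10 thermogenic genes, and the 9 members elsewhere a median of 7. By library the depths differed, with medians of 6000 and 4236 UMIs in replicate 1 and 5472.5 and 6233 UMIs in replicate 2. The medians of thermogenic genes were 13 and 10 in replicate 1 and 13 and 7 in replicate 2. Genes compared across this split were picked after their values were seen. Ppara had 2530 CPM (interval 2352 to 2718) in nuclei with Ucp1 and 762 CPM (interval 602 to 953) in those without. Pank1, which starts the synthesis of coenzyme A, had 1321 CPM (interval 1193 to 1458) and 465 CPM (interval 342 to 619). Cpt1b, which admits fatty acids to mitochondria, had 394 CPM (interval 326 to 472) and 79.2 CPM (interval 34.2 to 156). Since the split uses a gene of the rule, these values are a description.

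Other genes ran the opposite way. Plin4, a coat protein of white fat droplets, had 175 CPM (interval 131 to 230) in nuclei with Ucp1 and 911 CPM (interval 734 to 1117) in those without. Slc7a10 had 6.74 CPM (2 UMIs) and 317 CPM (32 UMIs), and Lpl had 1213 CPM (interval 1091 to 1345) and 1911 CPM (interval 1651 to 2201). Lipe did not separate them, at 923 CPM (interval 817 to 1039) and 970 CPM (interval 788 to 1183). Ebf2 hardly did, at 1358 CPM (interval 1228 to 1497) with Ucp1 and 1139 CPM (interval 940 to 1367) without. Slc36a2 (1102 and 535 CPM) and Cidea (960 and 624 CPM) were higher with Ucp1. In the 9 members elsewhere Plin4 had 670 CPM, Ppara 253 CPM and Cpt1b 44.6 CPM (3 UMIs, all in Ctrl ZT16 replicate 1), each on the side of the nuclei without Ucp1. Pank1 was on that side too, at 446 CPM (107 CPM without cKOt ZT16 replicate 1). Lpl at 1518 CPM and Slc7a10 at 104 CPM lay between the nuclei with and without Ucp1. The rule genes Cidec and Retn were also higher without Ucp1 in both libraries, Retn on 1 and 3 UMIs in replicate 1. Adrb3 had 233 CPM with Ucp1 and 873 CPM without in replicate 2, but 272 and 244 CPM in replicate 1. Adipoq had 116 and 421 CPM in replicate 2, and 80.6 and 81.5 CPM in replicate 1. A nucleus without Ucp1 had to hold 3 of the other rule genes, so the rule fixes part of these differences.

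The split was not the same in both libraries. In replicate 2, Ppara had 2055 CPM with Ucp1 and 390 CPM without, and Plin4 172 and 1153 CPM. In replicate 1, Ppara had 3474 and 1412 CPM, and Plin4 181 and 489 CPM, in 15 and 7 nuclei. Pank1 had 1438 and 281 CPM in replicate 2, and 1088 (interval 892 to 1313) and 788 CPM (interval 527 to 1131) in replicate 1. Cpt1b had 445 and 31.2 CPM (2 UMIs) in replicate 2, and 292 (interval 196 to 419) and 163 CPM (interval 59.8 to 355) in replicate 1. Lpl had 1169 and 2073 CPM in replicate 2, and 1299 (interval 1085 to 1544) and 1630 CPM (interval 1243 to 2098) in replicate 1. For these 5 genes the direction was the same in each library, but the replicate 1 intervals of Pank1, Cpt1b and Lpl overlapped, while Slc7a10 rested on replicate 2, with 1 of its 32 UMIs in the replicate 1 nuclei without Ucp1. Esrrg changed direction, with 2780 CPM with Ucp1 and 3992 CPM without in replicate 1, and 2506 and 873 CPM in replicate 2. Ebf2 had 1581 and 1684 CPM in replicate 1, and 1245 and 826 CPM in replicate 2. In replicate 1, 1 nucleus gave 95 of the 157 Ebf2 UMIs of the nuclei with Ucp1. Summed proximal tubule markers were higher in the nuclei without Ucp1 (2109 CPM, against 933 CPM with it, and in the same direction in each library, 2987 against 574 CPM and 1605 against 1114 CPM) and highest in the 9 members elsewhere (2902 CPM); their part in the split was not tested.

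**Figure D4:**
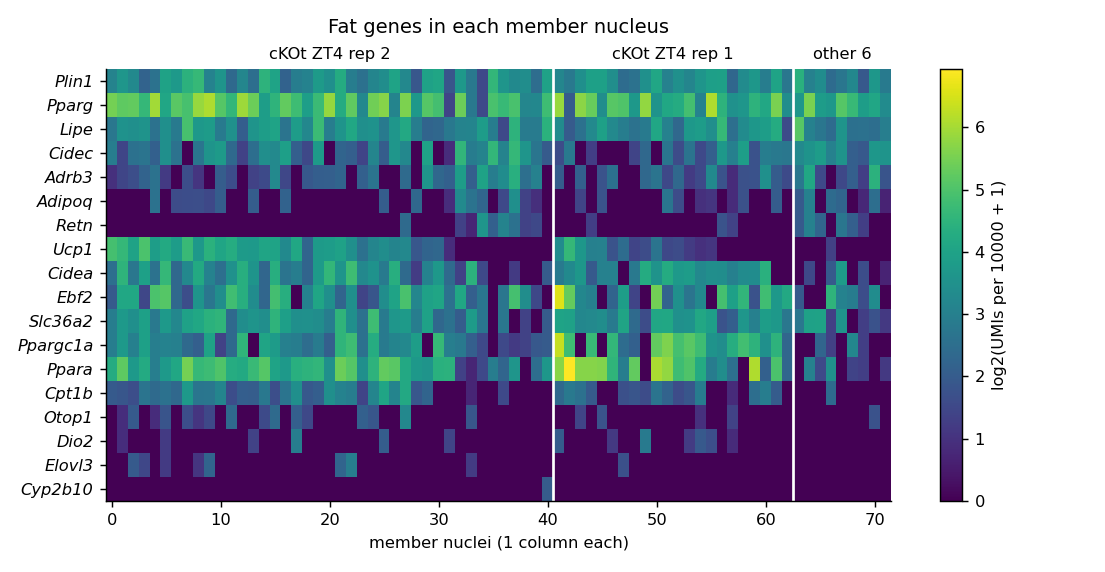
Each member nucleus (columns, by library and then by falling Ucp1 UMIs) and 18 fat genes (rows), coloured by log2 of UMIs per 10000 plus 1. Plin1, Pparg and Lipe are present in every column, and Ucp1 is missing from 7 of the 22 columns of cKOt ZT4 replicate 1, 9 of the 41 of replicate 2 and from all but 1 of the 9 columns of the other 6 libraries.

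Most genes of the lipid lists were higher in members. Of 14 genes of the lipid droplet and lipolysis, 11 were at least 4-fold higher in members (78.6%, against 5.46% of all genes tested, median ratio 11.9). Plin2, a general droplet coat, had 727 and 1330 CPM in the cKOt ZT4 members, 16 UMIs in members elsewhere and 19.8 CPM in the other nuclei. Gpd1, which makes the glycerol backbone, had 801 and 1131 CPM against 31.0 CPM. The 3 that were not were Bscl2 at 3.48-fold, Fitm1 with 1 UMI, and Hilpda with none.

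Of 19 genes of fatty acid and triglyceride synthesis, 15 were at least 4-fold higher (78.9%, against 5.46% of all genes tested, median ratio 14.7). Acaca, the cytosolic acetyl-CoA carboxylase that commits carbon to fatty acids, had 5466 and 7844 CPM in the cKOt ZT4 members and 94.6 CPM in the other nuclei. Acacb, the form at the mitochondrial surface whose product restrains fatty acid entry, had 3144 and 2308 CPM against 48.3 CPM. Elovl6, an elongase, had 830 and 1662 CPM against 84.4 CPM. The 4 that were not were Pck1, Mlxipl, Acss2 and Scd2, at 3.18-fold, 3.30-fold, 3.32-fold and 1.34-fold.

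Of 21 genes of fatty acid uptake and oxidation, 16 were at least 4-fold higher (76.2%, against 5.46% of all genes tested, median ratio 7.26). The other 5, Acadm, Fabp3, Cpt2, Acot2 and Vldlr, ranged from 2.58-fold to 3.77-fold. Acsl1, which activates fatty acids with coenzyme A, was found in all members, at 4283 and 4234 CPM in the cKOt ZT4 libraries and 180 CPM in the other nuclei. Cd36, the fatty acid translocase, had 1763 and 1666 CPM against 161 CPM.

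Of 18 genes of insulin and adrenergic signalling, 12 were at least 4-fold higher (66.7%, against 5.46% of all genes tested, median ratio 7.25). Prkar2b, the regulatory subunit of protein kinase A prominent in fat, had 3313 and 2021 CPM in the cKOt ZT4 members and 12.9 CPM in the other nuclei. Ghr, the growth hormone receptor, had 5271 CPM in members and 3519 CPM in the other nuclei. Adrb3 had 264 and 390 CPM in the cKOt ZT4 members and 446 CPM in members elsewhere (718 CPM without Ctrl ZT16 replicate 1).

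Of 17 transcriptional regulators, 8 were at least 4-fold higher (47.1%, against 5.46% of all genes tested) and 9 were neither (median ratio 3.89). Ebf1, which acts with PPARG in fat and marks other mesenchymal cells, had 3372 and 5174 CPM in the cKOt ZT4 members and 396 CPM in the other nuclei. Nfia, a partner of EBF2 and PPARG at brown fat enhancers, had 3901 and 5124 CPM against 1148 CPM (3.89-fold). Ppargc1a, the coactivator of mitochondrial genes, had 2211 and 722 CPM in the cKOt ZT4 members, 149 CPM (interval 71.4 to 274, and 57.4 CPM without Ctrl ZT16 replicate 1) in members elsewhere and 465 CPM in the other nuclei. Ppargc1a was picked here after its values were seen; it was above the other nuclei in both cKOt ZT4 libraries and below them in the members elsewhere.

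The 15 genes outside the rule with the largest ratio, among those found in at least 20% of members, included 4 long noncoding RNAs (lncRNAs). Gm35552 had 32 and 89 UMIs in the cKOt ZT4 members, 3 UMIs in the members elsewhere and 0.0662 CPM in the other nuclei, against 267 CPM in all members. A530053G22Rik had 1396 and 1288 CPM in the cKOt ZT4 members, 804 CPM in members elsewhere (471 CPM without the 1 member of Ctrl ZT4 replicate 1) and 0.371 CPM in the other nuclei. Lncbate1, a lncRNA named for its enrichment in brown fat, had 191 and 367 CPM in the cKOt ZT4 members, 179 CPM in those elsewhere and 0.127 CPM in the other nuclei. 4930438E09Rik had 22 and 17 UMIs in the cKOt ZT4 libraries and 2 elsewhere. Among lncRNAs found in at least 5% of members, Gm13544, with a ratio between those of Lncbate1 and 4930438E09Rik, had 9 UMIs in 9 members. Of the 9 members elsewhere, Lncbate1 was found in 7, A530053G22Rik in 5 and Gm35552 in 2. Genes that overlap these lncRNAs could share their reads, since no source used here says whether strand was counted.

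The protein-coding leaders were Slc36a2, Acvr1c, Ankef1, Apol6, Ebf2, Fgf14, Dhrs9, Nat8l, Cidea, Myl1 and Car3, with ratios from 3032 (Slc36a2) to 619 (Car3). Acvr1c, the activin receptor ALK7 of fat cells, had 338 and 474 CPM in the cKOt ZT4 members and 729 CPM in members elsewhere (390 CPM without Ctrl ZT4 replicate 2). Nat8l, which makes N-acetylaspartate, had 58.8 and 76.4 CPM in the cKOt ZT4 members and 2 UMIs elsewhere. Fgf14, a modulator of sodium channels, had 478 and 1334 CPM in the cKOt ZT4 members and 729 CPM in members elsewhere. Car3, a carbonic anhydrase of fat and muscle, was lowest in cKOt ZT4 replicate 1 (228 CPM), higher in replicate 2 (2205 CPM) and highest in members elsewhere (5253 CPM), and was found in all 9 of the latter. Myl1, a myosin light chain of fast muscle, had 88 UMIs in 47 members, while the muscle markers Acta1, Ckm, Myh4, Myh1 and Ttn were at 0.

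On the log2 scale, 10 of 16 clock genes stood nearer in members to the endothelium than to the proximal tubule in both cKOt ZT4 libraries, 1 (Tef) nearer to the proximal tubule in both, and 5 differed between the libraries, with many of these genes at few UMIs in members. No like count over all genes is given here, so these numbers do not set clock genes apart from genes at large. Of the 16 clock genes, 1 (6.25%) was at least 4-fold higher than in the other nuclei (Nr1d1, 7.01-fold) and none was 4-fold lower, but the other nuclei pool both times and genotypes. This is near the share over all genes tested, of which 5.46% were at least 4-fold higher and 5.04% lower. Against the other nuclei of the same library, 1 of the 16 was at least 4-fold higher in members of both cKOt ZT4 libraries (Nr1d2, 206 against 36.5 CPM and 195 against 43.4 CPM) and 1 at least 4-fold lower (Npas2, 51.4 against 398 CPM and 84.1 against 345 CPM), while Nr1d1 was 3.93-fold and 8.80-fold higher. The share of all genes called in both libraries is not given here, so the clock genes that follow are described singly. The study deleted Bmal1 (Arntl in the files) under Pax8 in tubules, so the proximal tubule is given first. Its Arntl level was 13.9 and 18.8 CPM in Ctrl ZT4, 261 and 174 CPM in cKOt ZT4, 150.5 and 153 CPM in Ctrl ZT16 and 261 and 229 CPM in cKOt ZT16. Counts taken at the 3′ end do not tell a recombined transcript from an intact one, so they do not check the deletion.

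Within the cKOt ZT4 libraries, Nr1d2, a repressor that BMAL1 activates, had 206 (interval 137 to 297) and 195 CPM (interval 145 to 256) in members. Endothelial nuclei of the same libraries had 121 and 129 CPM, and proximal tubule nuclei 21.3 and 26.3 CPM. Proximal tubule nuclei of Ctrl ZT4 had 157 and 152 CPM. Nr1d1, its paralogue, had 22.0 (3 UMIs, interval 4.55 to 64.4) and 76.4 CPM (interval 46.7 to 118) in members, 25.6 and 33.1 CPM in endothelium and 1.90 and 3.22 CPM in the proximal tubule of cKOt ZT4. The proximal tubule had the lowest value of both genes in each library, though the Nr1d1 level of replicate 1 members rests on those 3 UMIs. Tef, a clock output factor, ran the other way, with 176 and 225 CPM in members, 132 and 194 CPM in the proximal tubule and 76.2 and 91.8 CPM in endothelium.

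Npas2, which can stand in for CLOCK, ran the opposite way, with 51.4 (7 UMIs) and 84.1 CPM in members, 136 and 118 CPM in endothelium and 509 and 454 CPM in the proximal tubule of cKOt ZT4. Arntl had 140 (interval 84.0 to 218) and 84.1 CPM (interval 52.7 to 127) in members, 123 and 83.2 CPM in endothelium and 261 and 174 CPM in the proximal tubule. Per3 had 36.7 (5 UMIs) and 168 CPM in members, 24.97 and 29.5 CPM in endothelium and 10.5 and 13.9 CPM in the proximal tubule, and Dbp 1 and 8 UMIs in members. The members of the Ctrl ZT4 libraries, 3 nuclei, held 4 Nr1d2 UMIs and no Arntl UMI, which is too few to compare genotypes. Members also held tubule and endothelial RNA, whose summed marker levels are given with the other cell types. The part of this RNA in these clock levels was not tested.

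**Figure D5:**
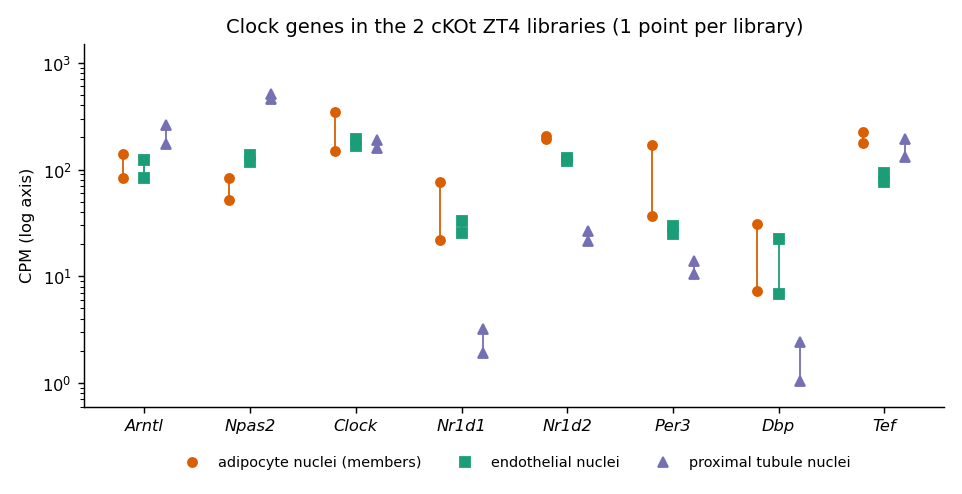
Clock gene levels (y axis, CPM, log scale) in members, endothelial nuclei and proximal tubule nuclei of the 2 cKOt ZT4 libraries, 1 point per library joined by a line. For Nr1d2 the members (206 and 195 CPM) and endothelium (121 and 129 CPM) stand above the proximal tubule (21.3 and 26.3 CPM), and for Npas2 they stand below it.

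Tubule RNA was present in members at a lower level than in the kidney at large. At least 3 of 8 proximal tubule markers were found in 42 of 72 members (58.3%, against 62.9% of the other nuclei), and at least 3 of 8 thick ascending limb markers in 19 (26.4% against 35.5%), 47 members in all. The summed level of the proximal tubule list was 1473 CPM in members, 6075 CPM in the other nuclei and 10484 CPM in proximal tubule nuclei. Nuclei of other non-tubule classes were also below the other nuclei at large, with 2426 CPM in endothelium and 2022 CPM in stroma and mural cells. At least 3 endothelial markers were found in 4 members and 3 fat progenitor markers in 1. Of these 4 members, 1 in cKOt ZT4 replicate 1 held 8 of the 8 endothelial markers. Another, in replicate 2, held 7 and the highest Ucp1 count (30 UMIs). Neither was scored as a doublet. The summed endothelial list was 514 and 168 CPM in the cKOt ZT4 members, and 764 and 1002 CPM in the other nuclei of these libraries. No member held 3 markers of distal tubule and collecting duct, intercalated cells, podocytes, stroma, myeloid cells, lymphocytes, urothelium, adrenal gland, skeletal muscle or Schwann cells. Of the adrenal markers 7 of 8 were at 0, with Star at 5 UMIs (10.8 CPM in members and 6.24 CPM in the other nuclei).

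The 25 members without 3 markers of either tubule segment gave 10 of 10 identity genes and 11 thermogenic genes at least 4-fold higher, with Pparg at 2887 CPM and Ucp1 at 715 CPM. Scrublet scored 12 members as doublets, 6 of 63 in cKOt ZT4 and 6 of 9 elsewhere, while 5.37% of all nuclei were scored so. The 6 elsewhere included every member of both Ctrl ZT4 libraries. Without the 12 doublets 60 members remained, of which 95% lay in cKOt ZT4 and 3 in the other libraries. Barcodes occurred in more than 1 library 823 times among 80565 distinct barcodes, and 1 member barcode was among them, but no barcode marked members of 2 libraries.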

How the data were processed

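Single-nucleus RNA was sequenced from 8 kidney libraries (10x Genomics 3′ chemistry). The authors made UMI counts per gene and called barcode with Cell Ranger, and these deposited counts were used as they stand, without normalization; the submitters' processing notes name bcl2fastq 2.20, Cell Ranger 7.1.0 and Seurat 5. The methods name the mm10 reference and the processing notes GRCm39. No source used here says whether intronic reads or a strand were counted. No coordinates were joined to the counts, and biotypes were matched by Ensembl identifier.

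Of 82784 barcodes, 81391 had 500 or more genes, 800 or more UMIs and no more than 2% mitochondrial UMIs. Members held at least 3 of the 10 rule genes at 1 UMI or more. The members and gene lists were chosen with earlier results of these data known, and nothing here is an independent test. Counts were summed over members and over the other nuclei, with 36548873 to 54500820 UMIs per library and 465026 UMIs in all members, and given as CPM with exact Poisson intervals; shares carry exact binomial (Clopper-Pearson) 95% intervals. UMI sums are not adjusted for gene length, so levels were compared between sets of nuclei and not between genes. A ratio was formed for genes with at least 20 UMIs, with a floor of 3 counts where a set had none, and a gene at 4-fold or more was counted. Comparison classes were non-members with at least 5 of 8 markers. Scrublet (scanpy 1.11.5) was run on each library at an expected doublet rate of 8%, and the doublets were kept. Clusters used 2000 variable genes, 50 principal components, 20 neighbours and Leiden resolution 2.2. No group was tested against another.

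Named genes were the rule genes, the 3 genes with the most UMIs of each list, the uncoupling proteins, the clock genes, and the 15 genes and 5 lncRNAs with the largest ratio among those found in 20% and 5% of members. Other genes were named after their values were seen. The values of 1 gene that this rule names are not reported here.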

Additional observations from a re-analysis of the deposited data

How the results depend on the processing

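No paired analysis was possible because no test was made and 6 of the 8 libraries held 4 members or fewer. Without cKOt ZT4 replicate 2 the 72 members fell to 31, of which 71.0% lay in cKOt ZT4; over all libraries left out in turn the number ranged from 31 to 72 and that share from 71.0% to 92.6%. The share of non-members of cKOt ZT4 with a rule gene UMI ranged from 1.13% to 3.75% in the same way. With every nucleus thinned to 1000 UMIs, 22 nuclei met the rule, 4.55% of them held 3 proximal tubule markers, and 0.853% of the cKOt ZT4 non-members held a rule gene UMI, since thinning removes UMIs. Without doublets 95% of members lay in cKOt ZT4. Without members that held tubule markers, an alternative added after seeing the data, 25 remained. Under the other alternatives the number of members stayed between 59 and 79. Over the alternatives other than left-out libraries that kept the 4-fold limit, identity genes past it numbered 9 or 10 of 10, thermogenic genes 10 to 12, and genes of the 4 lipid and signalling lists 53 to 59 (54 as reported). At an 8-fold limit the counts were 10, 9 and 38. The share of cKOt ZT4 members with Ucp1 ranged from 65% to 82.6%. Doubtful calls are those on 1 to 3 UMIs: 9 nuclei outside cKOt ZT4 gave 67194 UMIs in all, and a gene at 0 there may lie below 44.6 CPM.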

Other observations

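Creatine and calcium cycling, which can make heat without UCP1, did not stand out in the adipocyte nuclei. Of 9 genes, Ckmt2 (1 UMI) was at least 4-fold higher than in the other nuclei and Gatm, which makes the creatine precursor and is strongly used by the kidney, was at least 4-fold lower (53.8 against 285 CPM). Each is 11.1% of the list, against 5.46% of all genes tested that were higher and 5.04% that were lower. Atp2a2, the calcium pump of the endoplasmic reticulum, had 398 CPM in members and 387 CPM in the other nuclei. Alpl had 21.5 and 63.8 CPM, and Ryr1 had no UMI in members.

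Tshr and Zbtb16, named after their values were seen, were higher in the 9 adipocyte nuclei outside cKOt ZT4 than in the 63 within it. Tshr, the thyrotropin receptor, was found in 9 of 9 and in 14 of 63, at 1354 CPM (exact Poisson interval 1090 to 1663) and 90.5 CPM (interval 63.4 to 125). Zbtb16, a transcription factor that responds to glucocorticoids, was found in 9 of 9 and in 23 of 63, at 923 CPM (interval 707 to 1183) and 116 CPM (interval 84.7 to 154). In the other nuclei they had 17.2 and 68.0 CPM. The difference was not tested, and 6 of the 9 nuclei were scored as doublets. Zfp423, a regulator of the white fat state listed among the progenitor markers, was found in 43 of 72 members (178 CPM, against 17.1 CPM in the other nuclei), while Pdgfra, a defining marker of progenitors, had 2 UMIs.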
